A study of Mus musculus with 96 samples.

Results

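The 26S proteasome genes of mouse liver were followed here through their ATAC-seq peaks, which are stretches of DNA where the transposase could cut because the chromatin was open. The set holds every peak whose nearest annotated gene carries a name of the form Psma to Psmg plus a digit and whose centre lies within 10000 bp of that gene's transcription start site (TSS), without the immunoproteasome genes Psmb8 and Psmb9. In hepatocyte nuclei the rule gave 67 peaks at 41 genes, out of 46832 peaks in the table. In macrophage nuclei it gave 63 peaks at 42 genes, out of 30170 peaks. Within 1000 bp of the TSS, called promoter peaks below, lay 50 member peaks in each table. At any distance the name rule matched 106 hepatocyte and 81 macrophage peaks. The most distant hepatocyte members, Psma4 at −8566 and Psmd1 at −8186, had mean levels of 87.2 and 212 normalised reads. The nearest hepatocyte peaks outside the distance, both assigned to Psmb3 at 10644 and 11549, had 74.9 and 53.5. In macrophages the outermost members were Psma3 peaks at −6375 and −5965 with 30.7 and 43.2 normalised reads, and the nearest excluded peaks, Psme4 at 14971 and Psmb3 at 15040, had 27.2 and 27.9. All 67 and 63 members passed the filter on low values, a mean of at least 10 normalised reads over the 32 mice of a table.

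The mice were females of the HEP-INTACT and MAC-INTACT lines, in which nuclei of 1 cell type carry a tag that lets beads pull them out of whole liver. Which promoter drives the tag, the strain background and the age are not given in the sources used here. Food was withdrawn at ZT12, the start of the dark, active phase, and fasted mice were taken after 3, 8, 16 and 24 h, at ZT15, 20, 4 and 12. Mice fed ad libitum were taken at the same 4 times. Each of the 16 groups (2 lines, fasted or fed, 4 times) held 4 mice. The fed mice of each time were separate animals, so the 4 comparisons of a cell type share no controls. Macrophage libraries were made in technical duplicate and the deposited table gives 1 column per mouse. Whether mice shared a cage or a day was not stated, so the p-values measure only the spread between the 4 mice within a group. That spread was pooled over the 8 groups of a cell type and moderated across peaks.

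Proteasomes degrade proteins that carry chains of ubiquitin. A core particle built of rings of alpha subunits (Psma genes) and beta subunits (Psmb genes), with the proteolytic sites on beta subunits, is capped by a regulatory particle. The regulatory particle holds a ring of ATPases (Psmc genes), which unfold the substrate and feed it into the core, and non-ATPase subunits (most Psmd genes), which bind ubiquitin, remove it and hold the lid together. Psmg1 to Psmg4, Psmd5 and Psmd9 encode assembly chaperones, the Psme genes encode alternative activators that cap the core without the ATPases, and Psmf1 encodes a protein first described as a proteasome inhibitor. Transcription of the subunit genes is known to be coordinated, with the factors NFE2L1 and NF-Y among those that act on their promoters. In liver, fasting is known to raise protein breakdown and supply amino acids for making glucose. Psmc3ip also fits the name pattern; it encodes a recombination protein, is no subunit, and was kept as 1 peak in each table because the rule holds it.

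Promoter sequence is shown for 6 genes, chosen among the genes described below as those of 5 roles with a called peak whose fasted and fed mice did not overlap, plus Psma5, whose promoter peak was more open in fasted mice at all 4 times. Each is the 250 bases upstream of the RefSeq start on the plus strand of GRCm38.p6, 5′ to 3′, with matches to 6 searched motifs in capitals. The 6 lie at chr12:70974373-70974622 (Psma3), chr11:97703184-97703433 (Psmb3), chr1:86064369-86064618 (Psmd1), chr5:123227940-123228189 (Psmd9), chr14:55578244-55578493 (Psme1) and chr3:108256676-108256925 (Psma5).
Psma3: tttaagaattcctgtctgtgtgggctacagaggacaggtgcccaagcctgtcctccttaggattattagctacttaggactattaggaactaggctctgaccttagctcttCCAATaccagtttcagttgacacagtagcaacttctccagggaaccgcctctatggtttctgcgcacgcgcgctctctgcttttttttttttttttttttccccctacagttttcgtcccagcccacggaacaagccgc
Psmb3: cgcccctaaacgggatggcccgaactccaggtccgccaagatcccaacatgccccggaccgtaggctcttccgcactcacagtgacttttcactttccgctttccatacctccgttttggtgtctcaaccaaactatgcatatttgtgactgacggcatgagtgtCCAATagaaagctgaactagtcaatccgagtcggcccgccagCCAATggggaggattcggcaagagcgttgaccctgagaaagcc
Psmd1: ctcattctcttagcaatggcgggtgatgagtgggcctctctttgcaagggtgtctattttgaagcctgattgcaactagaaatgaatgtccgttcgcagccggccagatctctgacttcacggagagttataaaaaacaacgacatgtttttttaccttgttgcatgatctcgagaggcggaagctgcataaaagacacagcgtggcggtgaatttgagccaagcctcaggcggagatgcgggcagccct
Psmd9: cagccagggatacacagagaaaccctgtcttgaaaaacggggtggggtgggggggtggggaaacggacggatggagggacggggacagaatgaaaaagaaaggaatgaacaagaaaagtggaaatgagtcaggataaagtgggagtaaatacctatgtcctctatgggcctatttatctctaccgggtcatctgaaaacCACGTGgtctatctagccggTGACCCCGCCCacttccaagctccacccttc
Psme1: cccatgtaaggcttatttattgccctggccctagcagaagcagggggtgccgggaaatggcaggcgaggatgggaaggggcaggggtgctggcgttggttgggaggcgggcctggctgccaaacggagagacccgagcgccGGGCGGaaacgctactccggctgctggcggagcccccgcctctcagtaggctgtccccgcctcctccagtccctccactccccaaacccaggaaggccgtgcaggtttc
Psma5: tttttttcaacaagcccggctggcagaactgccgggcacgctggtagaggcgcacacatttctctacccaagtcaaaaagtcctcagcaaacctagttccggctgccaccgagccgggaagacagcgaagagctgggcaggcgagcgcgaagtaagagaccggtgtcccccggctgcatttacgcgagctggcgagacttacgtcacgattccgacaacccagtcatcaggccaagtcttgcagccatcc
The motifs were searched on both strands: CCAAT (the box bound by NF-Y), GGGCGG (Sp1), TGACNNNGC (the core of the antioxidant response element, bound by NFE2L1 and NFE2L2 with small MAF proteins), CCGGAAG (ETS factors), TGACGTCA (cAMP response element) and CACGTG (E-box). The capitals are 1 CCAAT in Psma3, first base at −139, and a pair in Psmb3, at −85 and −43. In Psmd9 they are an E-box at −51 and an antioxidant response core at −31 that overlaps a minus-strand Sp1 motif at −26. In Psme1 they are 1 Sp1 motif at −109. Psmd1 and Psma5 held no match in this window.

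Of the 42 member genes, 35 had a promoter in the RefSeq table (the 7 without one were Psmb1, Psmb2, Psmb7, Psmc3, Psmd3, Psmd7 and Psmg2). For members the start nearest a member peak was used, and for the genes compared the start of lowest coordinate, whether or not a peak lay there. The shares below therefore compare promoters that were not chosen alike. CCGGAAG stood in 13 of the 35 (37.1%), against 7.14% of all 27025 promoters and 14.8% of the 8234 from genes with a hepatocyte peak within 1000 bp of a TSS. GGGCGG stood in 18 (51.4%), against 32.7% and 60.7%. CCAAT stood in 9 (25.7%), against 34.2% and 37.6%, and the antioxidant response core in 5 (14.3%), against 10.1% and 12.2%. CACGTG stood in 4 (11.4%), against 5.93% and 9.01%, and TGACGTCA in 0, against 1.56% and 2.94%. Of the 35 genes, 20 had a hepatocyte promoter peak that opened at 24 h, and 11 had such a peak but none that opened then. The 7 genes without a sequence, among them Psmd3, are not in these counts. CCAAT stood in 5 of the 20 and 3 of the 11, GGGCGG in 12 and 6, the antioxidant response core in 4 and 0, CCGGAAG in 6 and 5, and CACGTG in 3 and 0. A match describes letters in the window and does not show that a factor bound there.

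Libraries held 2458156 to 6098645 reads in peaks in hepatocytes (median 4364781) and 1729720 to 4637873 in macrophages (median 3531871). Member peaks took 0.145% to 0.179% of those reads in hepatocytes and 0.251% to 0.272% in macrophages. Marker genes fitted the labels: in the hepatocyte table all 12 hepatocyte markers had peaks (71 in all) and 1 of 12 Kupffer cell and macrophage markers did (Csf1r), and in the macrophage table all 12 Kupffer cell and macrophage markers had peaks (32) and 1 of 12 hepatocyte markers did (Apoa2). Of the other lists, endothelial markers had peaks at 2 of 6 genes in each table, stellate cell and cholangiocyte markers at 1 of 6 and 1 of 5 genes in hepatocytes and at none in macrophages, monocyte and neutrophil markers at 1 of 5 genes in macrophages alone, and lymphocyte markers at none in either. Among macrophage libraries, fasted 16 h replicates 1 and 4 had the lowest median correlations with the others, 0.922 and 0.927, against 0.933 or more in the rest. Hepatocyte libraries had lower median correlations with each other, 0.780 to 0.879. The lowest were fasted 16 h replicate 3 at 0.780 and fasted 8 h replicate 2 at 0.790, the latter with the fewest reads. Since nuclei were pooled within a mouse, fewer nuclei with an open site and a smaller opening in each nucleus cannot be told apart.

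Proteasome gene peaks were of moderate height, and the promoter peaks had the higher medians. A level is the normalised reads in the 200 bp peak, averaged over 32 mice. The 50 hepatocyte promoter peaks spanned 22.3 (Psme4) to 223 (Psme2), with a median of 82.3. The 17 hepatocyte peaks beyond 1000 bp spanned 25.2 to 212, with a median of 61.0. In macrophages the 50 promoter peaks had a median of 115 and reached 348 at Psme2, and the 13 more distant peaks had a median of 43.2. Because the 2 tables were normalised separately, levels were not compared between the cell types. By role, the hepatocyte promoter medians were 98.6 for the alpha ring (8 peaks), 66.3 for the beta ring (8), 134 for the ATPases (4), 82.3 for the non-ATPase subunits (14), 63.0 for the assembly factors (7), 46.5 for the activators (7) and 39.9 for the 1 peak of Psmf1.

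Several members share their DNA with something else. Peaks were assigned by nearest TSS, which does not show that a peak acts on that gene. The Psma7 promoter peak lies at −31 from the start of Ss18l1, the Psmd13 promoter peak at −66 from a start of Sirt3, and the Psme2 promoter peak at −653 from a start of Rnf31. The Psma3 peak at −5472 overlaps the 73 bp tRNA gene n-TKctt17 and lies 132 bp from the start of the longer RefSeq span of Psma3. The Psmb3 peak at −839 overlaps the 74 bp tRNA gene n-TNgtt8 and is 161 bp from Pcgf2. Psmc1 at −2156 and Psmc2 at 1430 lie at −27 and −34 from another RefSeq start of the same gene, so they are promoter peaks under that annotation. In hepatocytes 3 pairs of peaks overlap and share reads, at Psma3 (22 bp), Psmd14 (58 bp) and Psma1 (101 bp), and in macrophages so do these and a pair at Psmb3 (42 bp). The members of such a pair are not independent.

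In hepatocytes, more proteasome gene peaks were called opened at the later times of the fast, and so were more of the other peaks. The count at 24 h depended on how the libraries were scaled. Centring on the other promoter peaks, a setting chosen after seeing the data, gave 1 opened and 2 closed. In that setting 4.31% of the other peaks within 10000 bp opened and 11.9% closed. The remaining scalings, given below, left more members opened than that setting and fewer than as deposited. Opened means higher in fasted than in fed mice, closed means lower, each with an adjusted p below 0.05 over all tested peaks of the table by limma on log2(normalised reads + 2). At 3 h, 4 of the 67 peaks opened and 1 closed, against 9.95% and 7.58% of the 26737 other peaks within 10000 bp. At 8 h, 16 opened and 1 closed, against 19.5% and 9.18% of the others. At 16 h the counts were 18 and 1, against 19.8% and 7.46%. At 24 h, 35 opened and 1 closed, against 32.7% and 6.30%. The genes with an opened peak numbered 3, 12, 14 and 26 at 3, 8, 16 and 24 h. The median log2 fold change of the 67 peaks was −0.0043 at 3 h, 0.15 at 8 h, 0.21 at 16 h and 0.34 at 24 h, and that of the other peaks within 10000 bp was −0.0024, 0.11, 0.14 and 0.22. Positive values were found for 32, 54, 62 and 61 of the 67. Among the 26737 other peaks they were found for 13265, 17560, 18557 and 20462. Fasted and fed mice did not overlap at 7, 13, 20 and 26 of the 67 peaks (10.4%, 19.4%, 29.9% and 38.8%), against 21.8%, 25.8%, 20.4% and 37.6% of the other peaks within 10000 bp. All fasted mice were above all fed mice at 5, 12, 20 and 25 of the 67, against 11.8%, 17.4%, 15.8% and 31.1% of the others.

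**Figure D1:**
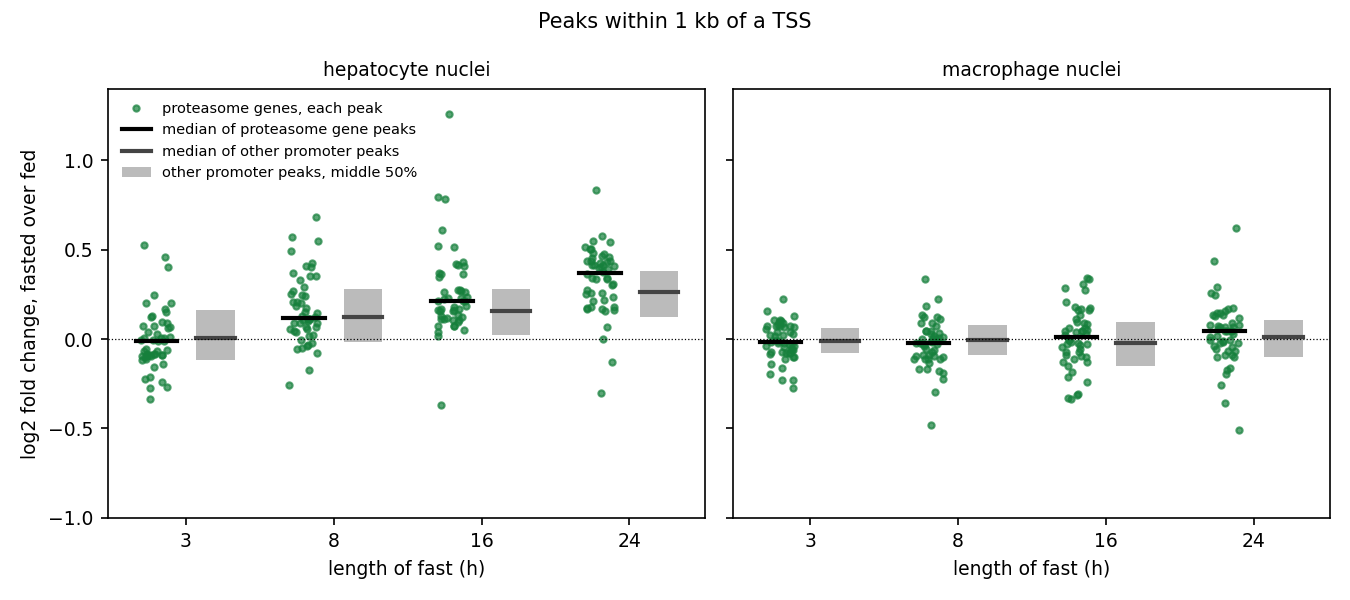
Log2 fold change (fasted over fed) against the length of the fast in h, for each of the 50 proteasome gene peaks within 1 kb of a TSS (points, with their median as a black line) and for the other promoter peaks of the table (grey box, middle 50%, with its median), hepatocyte nuclei left and macrophage nuclei right. In hepatocytes the median of the proteasome gene peaks was −0.01, 0.12, 0.21 and 0.37 at 3, 8, 16 and 24 h, beside 0.01, 0.12, 0.16 and 0.26 for the other promoter peaks; in macrophages both stayed within 0.05 of 0.

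Most of these calls were small. The 35 opened peaks of 24 h had log2 fold changes of 0.24 to 0.83 with a median of 0.43, and 33 of them were below 1.5-fold. The 16 opened peaks of 8 h spanned 0.29 to 2.33 and the 18 of 16 h spanned 0.21 to 1.26. Over the 4 times, 45 peaks at 30 genes (67.2% of the 67) opened at least once, against 49.7% of the other peaks within 10000 bp. At least 1 closing was called on 2 peaks (2.99%), against 17.3% of the others, and 20 peaks (29.9%) were never called, against 35.1%. Opening was called at 24 h and no other time for 19 peaks (28.4%, against 16.2% of the others). It was called at exactly 2 times for 16 (23.9%, against 14.5% of the others). Of these, 7 opened at 16 and 24 h (10.4% of the 67, against 6.06% of the others). The pair of 8 and 24 h held 5 (7.46%, against 2.77%), and 8 and 16 h held 4 (5.97%, against 2.69%). A promoter peak of Psma5 and a distal peak of Psmd9 opened at all 4 times (2.99%, against 1.54% of the others). The 11 genes with no called peak were Psma6, Psma7, Psmb1, Psmb7, Psmb10, Psmc1, Psmc3, Psmd6, Psmf1, Psmg1 and Psmg4.

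The alpha ring, which gates the entrance to the core, had 10 hepatocyte peaks at 6 genes. Opened peaks numbered 1, 3, 1 and 6 at 3, 8, 16 and 24 h, against 9.95%, 19.5%, 19.8% and 32.7% of the other peaks within 10000 bp. Its median log2 fold change was −0.04, 0.18, 0.20 and 0.34. Differences between this and the other roles were not tested. Psma5 (peak at 103, chr3:108256929-108257129, 5′ UTR in exon 1) had 162, 176, 184 and 205 in fasted mice, against 114, 123, 127 and 138 in fed mice at 3 h. No fasted mouse overlapped a fed one. The means were 182 ± 17.8 in fasted and 125 ± 9.81 in fed mice (SD, n = 4 each), a log2 fold change of 0.53 ± 0.10 SE (limma adjusted p = 0.000122). At 24 h Psma5 had 169, 172, 184 and 185 in fasted mice, against 129.7, 129.9, 139 and 163 in fed mice, again without overlap, a log2 fold change of 0.34 ± 0.10 SE (adjusted p = 0.00646). The fed mice averaged 125, 127, 134 and 140 normalised reads at the 4 times and the fasted mice 182, 181, 180 and 177, and no difference with time passed the threshold in either group (adjusted p = 0.495 in fed and 0.993 in fasted mice).

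Psma3 had a called difference at a proximal and at a distal peak, at different times. At −138 (chr12:70974385-70974585) the fasted mice of 24 h had 51.9, 57.3, 59.9 and 74.9, against 35.0, 38.1, 41.4 and 45.9 in the fed mice. The 4 fasted mice were all above the 4 fed ones, by 0.58 ± 0.15 SE in log2 (adjusted p = 0.00272). At 3, 8 and 16 h the log2 differences of that peak were −0.0040, 0.18 and 0.21, none past the threshold. At −5472 (chr12:70969051-70969251), the peak on the tRNA gene, the fasted mice of 3 h had 17.4, 19.6, 23.5 and 25.1, against 30.9, 31.7, 35.5 and 39.8 in the fed mice. The fasted mice lay wholly below, a log2 fold change of −0.65 ± 0.18 SE (adjusted p = 0.00653). The later differences at that peak were −0.08, 0.19 and 0.33, and the fasting effect differed between times (moderated F test, adjusted p = 0.0142).

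The beta ring, which carries the proteolytic sites, had 10 peaks at 7 genes. Opened peaks numbered 0, 2, 3 and 6 at 3, 8, 16 and 24 h, against 9.95%, 19.5%, 19.8% and 32.7% of the other peaks within 10000 bp. None closed, against 7.58%, 9.18%, 7.46% and 6.30%. The calls fell on Psmb2, Psmb3, Psmb4 and Psmb6, where Psmb6 encodes a catalytic subunit, and none fell on Psmb7, a catalytic subunit, on Psmb1 or on Psmb10, the immunoproteasome member left in the set. Psmb3 encodes a structural beta subunit. Its peak at −839 (chr11:97702495-97702695), the one over a tRNA gene, had 42.6, 42.8, 45.8 and 60.1 in fasted mice, against 23.6, 28.0, 34.2 and 37.2 in fed mice at 16 h. The groups did not overlap, and the log2 fold change was 0.61 ± 0.17 SE (adjusted p = 0.00629). At 8 h it had 32.2, 39.5, 39.8 and 55.9 in fasted mice, against 26.2, 26.6, 27.2 and 27.9 in fed mice, also without overlap (0.57 ± 0.17 SE, adjusted p = 0.00905). Nearer the start, the Psmb3 peak at −167 (chr11:97703167-97703367) averaged 114 ± 10.002 in fasted and 134 ± 11.3 in fed mice (SD, n = 4 each) at 3 h, a difference of −0.24 ± 0.10 SE that missed the threshold (adjusted p = 0.0976). At 24 h the same peak had 131, 153, 159 and 159 in fasted mice, against 107, 108, 113 and 118 in fed mice. All fasted mice were above all fed mice there (0.42 ± 0.10 SE, adjusted p = 0.00211), and the fasting effect differed between times (adjusted p = 0.00367).

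The ATPases had 8 peaks at 5 genes. Of these 0, 1, 2 and 3 opened, against 9.95%, 19.5%, 19.8% and 32.7% of the other peaks within 10000 bp. The 3 at 24 h were Psmc2, Psmc4 and Psmc6, named after their values were seen, with log2 fold changes of 0.50, 0.41 and 0.42. The peak of Psmc6 at −4196 (chr14:45325528-45325728, intergenic) had 63.6, 72.4, 85.4 and 101 in fasted mice, against 42.7, 52.9, 56.0 and 58.3 in fed mice at 8 h. Every fasted mouse was above every fed one (0.59 ± 0.17 SE, adjusted p = 0.00721). At 16 h it had 54.0, 66.3, 76.0 and 126 in fasted mice, against 34.9, 46.1, 46.8 and 52.1 in fed mice, with the highest fasted mouse far above the rest (0.76 ± 0.17 SE, adjusted p = 0.000879). At 24 h the means were 54.6 ± 4.65 in fasted and 55.7 ± 7.72 in fed mice (SD, n = 4 each), a difference of −0.02 ± 0.17 SE, and the effect differed between times (adjusted p = 0.0131).

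Non-ATPase subunits had 18 peaks at 11 genes. Opened peaks numbered 1, 3, 6 and 9 at 3, 8, 16 and 24 h, against 9.95%, 19.5%, 19.8% and 32.7% of the other peaks within 10000 bp. None closed, against 7.58%, 9.18%, 7.46% and 6.30%. The largest difference of the whole set lay in intron 1 of Psmd4, which encodes a ubiquitin receptor of the regulatory particle. This peak, 2316 bp inside the gene (chr3:95040198-95040398), had 63.6, 64.9, 82.1 and 100.3 in fasted mice, against 11.8, 12.999, 14.3 and 15.6 in fed mice at 8 h. The lowest fasted mouse was far above the highest fed mouse. The means of 77.7 ± 17.3 in fasted and 13.7 ± 1.62 in fed mice (SD, n = 4 each) differed by 2.33 ± 0.24 SE in log2, which is 5.02-fold (limma adjusted p = 4.93e-09). At 16 h the peak had 17.5, 23.3, 23.9 and 44.9 in fasted mice, against 10.6, 13.9, 13.98 and 14.7 in fed mice, still without overlap but with 1 fasted mouse well above the other 3 (0.87 ± 0.24 SE, adjusted p = 0.00644). At 24 h the groups overlapped, with means of 17.8 ± 4.22 in fasted and 12.8 ± 4.52 in fed mice (SD, n = 4 each) and a difference of 0.46 ± 0.24 SE (adjusted p = 0.138). The 3 h difference of 0.66 ± 0.24 SE passed narrowly (adjusted p = 0.0486) and was lost when any 1 of 6 mice was left out. Fed mice had means of 12.8 to 14.7 over the 4 times, with no difference past the threshold (adjusted p = 0.892).

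**Figure D2:**
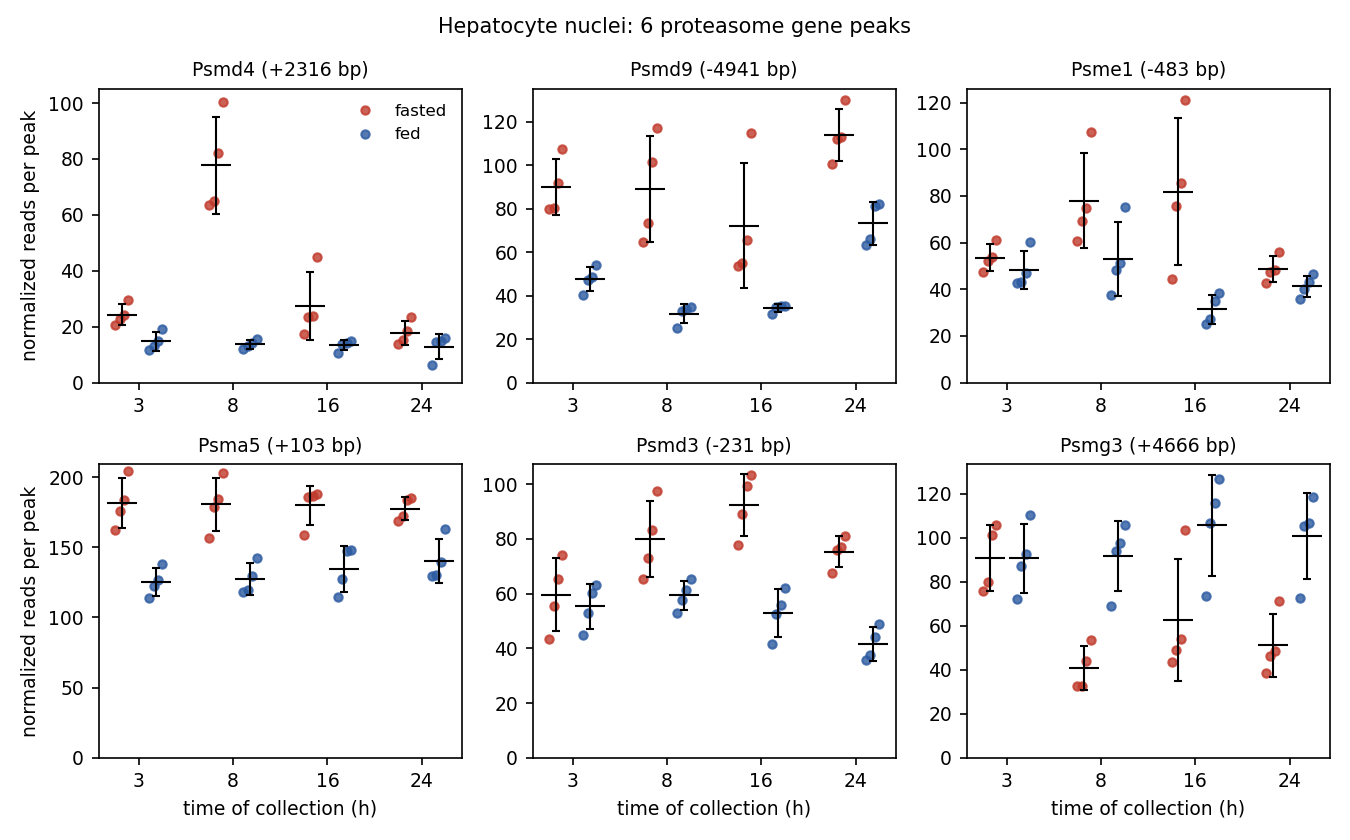
Normalised reads per peak in every hepatocyte mouse against the time of collection in h, for 6 proteasome gene peaks; fasted mice are red and stand left of the fed mice in blue, with the mean and SD of each 4 mice in black. Psmd4 peaks at 8 h in fasted mice (mean 77.7 beside 13.7 in fed mice), Psma5 is higher in fasted mice at all 4 times, and Psmg3 is lower in fasted mice from 8 h on.

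Psmd3 and Psmd1 encode structural subunits of the regulatory particle. At −231 (chr11:98682223-98682423) Psmd3 had 77.9, 89.0, 99.3 and 103 in fasted mice, against 41.4, 52.4, 56.0 and 62.1 in fed mice at 16 h and 67.5, 75.8, 77.1 and 81.0 in fasted mice, against 35.8, 37.6, 44.0 and 49.0 in fed mice at 24 h. The groups were apart at both times, and the log2 fold changes were 0.79 ± 0.15 SE (adjusted p = 0.000108) and 0.83 ± 0.15 SE (adjusted p = 8.46e-05). This was the largest opening of the set at 24 h. At 3 h the groups of Psmd3 overlapped, with a difference of 0.09 ± 0.15 SE, and the effect differed between times (adjusted p = 0.0209). The promoter peak of Psmd1 at 27 (chr1:86064546-86064746) had 41.7, 44.5, 44.9 and 46.7 in fasted mice, against 14.9, 25.8, 28.0 and 34.4 in fed mice at 16 h. The 4 fasted mice lay close together above all fed mice (0.80 ± 0.21 SE, adjusted p = 0.00327), and at 24 h the difference of 0.47 ± 0.21 SE did not pass (adjusted p = 0.0731). Of the remaining 8 non-ATPase genes, 6 had a peak that opened at 24 h (Psmd2, Psmd7, Psmd8, Psmd11, Psmd12 and Psmd13, named after their values were seen), with log2 fold changes of 0.27 to 0.48.

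Assembly factors had 12 peaks at 6 genes. Of these 2, 6, 2 and 7 opened, against 9.95%, 19.5%, 19.8% and 32.7% of the other peaks within 10000 bp. Those that closed were 0, 1, 1 and 1, against 7.58%, 9.18%, 7.46% and 6.30%. Psmd9, a chaperone of the ATPase ring, held all of the class's openings at 3 h and 4 of the 6 at 8 h. Its distal peak at −4941 (chr5:123223149-123223349, intergenic) had 79.8, 80.5, 91.6 and 108 in fasted mice, against 40.4, 47.1, 48.7 and 53.9 in fed mice at 3 h. All fasted mice were above all fed mice (0.89 ± 0.17 SE, adjusted p = 0.000302). At 8 h it had 64.7, 73.6, 101 and 117 in fasted mice, against 25.1, 32.7, 33.96 and 34.8 in fed mice, a wider gap of 1.41 ± 0.17 SE (adjusted p = 9.98e-08). The differences at 16 and 24 h, also without overlap, were 0.97 ± 0.17 SE and 0.63 ± 0.17 SE (adjusted p = 5.79e-05 and 0.00576). In fed mice alone this peak changed with time of day, with means of 47.5, 31.6, 34.2 and 73.2 at 3, 8, 16 and 24 h (adjusted p = 1.41e-05), and fasted mice averaged 89.9, 89.2, 72.1 and 114. A second Psmd9 peak, at −1157 and named after its values were seen, opened at 3, 8 and 24 h, by 0.86, 0.95 and 0.50.

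The 1 hepatocyte peak that closed at more than 1 time as deposited was also assigned to an assembly factor. It lies 4666 bp from the start of Psmg3, which encodes a chaperone of the alpha ring, beyond the 3′ end of that gene in intergenic sequence (chr5:139822128-139822328). At 8 h it had 32.7, 32.8, 44.1 and 53.7 in fasted mice, against 68.8, 94.0, 97.6 and 106 in fed mice. Every fasted mouse was below every fed mouse, a log2 fold change of −1.14 ± 0.21 SE (adjusted p = 5.46e-05). At 24 h it had 38.5, 46.1, 48.3 and 71.4 in fasted mice, against 72.6, 105, 107 and 119 in fed mice, again without overlap (−0.97 ± 0.21 SE, adjusted p = 0.000689). At 16 h 1 fasted mouse at 104 lay within the fed range of 73.7 to 127, and the difference was −0.80 ± 0.21 SE (adjusted p = 0.00361). At 3 h the means were 90.8 ± 15.1 in fasted and 90.6 ± 15.7 in fed mice (SD, n = 4 each), and the effect differed between times (adjusted p = 0.0169). The promoter peak of Psmg3 moved the other way at 24 h, by 0.46 (adjusted p = 0.0486). For Psmg2, another alpha ring chaperone, the promoter peak at 5 had 31.8, 34.1, 35.2 and 36.5 in fasted mice, against 21.5, 21.8, 23.9 and 27.1 in fed mice at 24 h, without overlap (0.51 ± 0.18 SE, adjusted p = 0.0256).

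Activator genes had 7 peaks at 4 genes. Of these 0, 1, 3 and 3 opened, against 9.95%, 19.5%, 19.8% and 32.7% of the other peaks within 10000 bp. Psme1 encodes a subunit of the interferon-inducible activator PA28. Its peak at −483 (chr14:55577911-55578111) had 44.5, 75.8, 85.5 and 121 in fasted mice, against 25.1, 27.3, 35.1 and 38.3 in fed mice at 16 h. The groups did not overlap although the fasted mice were widely spread, and the means of 81.7 ± 31.5 in fasted and 31.4 ± 6.27 in fed mice (SD, n = 4 each) differed by 1.26 ± 0.20 SE in log2 (adjusted p = 1.15e-05). At 24 h the difference was 0.22 ± 0.20 SE (adjusted p = 0.400), and the effect differed between times (adjusted p = 0.0135). Psme3 encodes the nuclear activator PA28 gamma. Its peak at −277 had 28.9, 30.5, 32.2 and 40.9 in fasted mice, against 15.9, 21.5, 25.2 and 26.2 in fed mice at 24 h, all fasted above all fed (0.55 ± 0.19 SE, adjusted p = 0.0244). The inhibitor gene Psmf1 had 1 peak, at −11, with log2 differences of −0.10, −0.0048, 0.02 and −0.13 at the 4 times, none past the threshold. Its means at 24 h were 36.4 ± 4.67 in fasted and 39.8 ± 3.04 in fed mice (SD, n = 4 each). The promoter peak of Psmc3ip opened at 16 and 24 h, by 0.41 and 0.40 in log2.

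The opening at 24 h was shared with promoter peaks at large. Of the 50 proteasome promoter peaks, 1, 9, 13 and 29 opened at 3, 8, 16 and 24 h, and of the 16301 other promoter peaks 8.82%, 19.04%, 20.2% and 41.1% opened. By limma on the values as deposited, none of the 50 closed at any time, against 4.20%, 4.25%, 3.02% and 2.36% of the other promoter peaks. At an unadjusted p below 0.05 the closed ones numbered 2, 1, 0 and 0. Centred on the other promoter peaks, as given below, Psmb3 (−167), Psmg4 (−32) and Psme1 (−43) did close at some time. The median log2 fold change at 24 h was 0.37 for the proteasome promoter peaks, 0.26 for the other promoter peaks and 0.16 for all peaks. In the median over promoter peaks within each mouse, in log2(normalised reads + 2), the proteasome genes were at 6.35 to 6.57 in the 24 h fasted mice and at 6.13 to 6.24 in the fed mice. The other promoter peaks were at 6.27 to 6.46 in fasted and 6.05 to 6.20 in fed mice. The difference between both medians was 0.02 to 0.11 in fasted and −0.03 to 0.10 in fed mice, and these ranges overlapped. At 16 h it was 0.12 to 0.27 in fasted and 0.11 to 0.20 in fed mice, and at 8 h −0.07 to 0.06 in fasted and 0.05 to 0.19 in fed mice. At 3 h it was −0.08 to 0.01 in fasted and 0.03 to 0.10 in fed mice, without overlap.

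**Figure D3:**
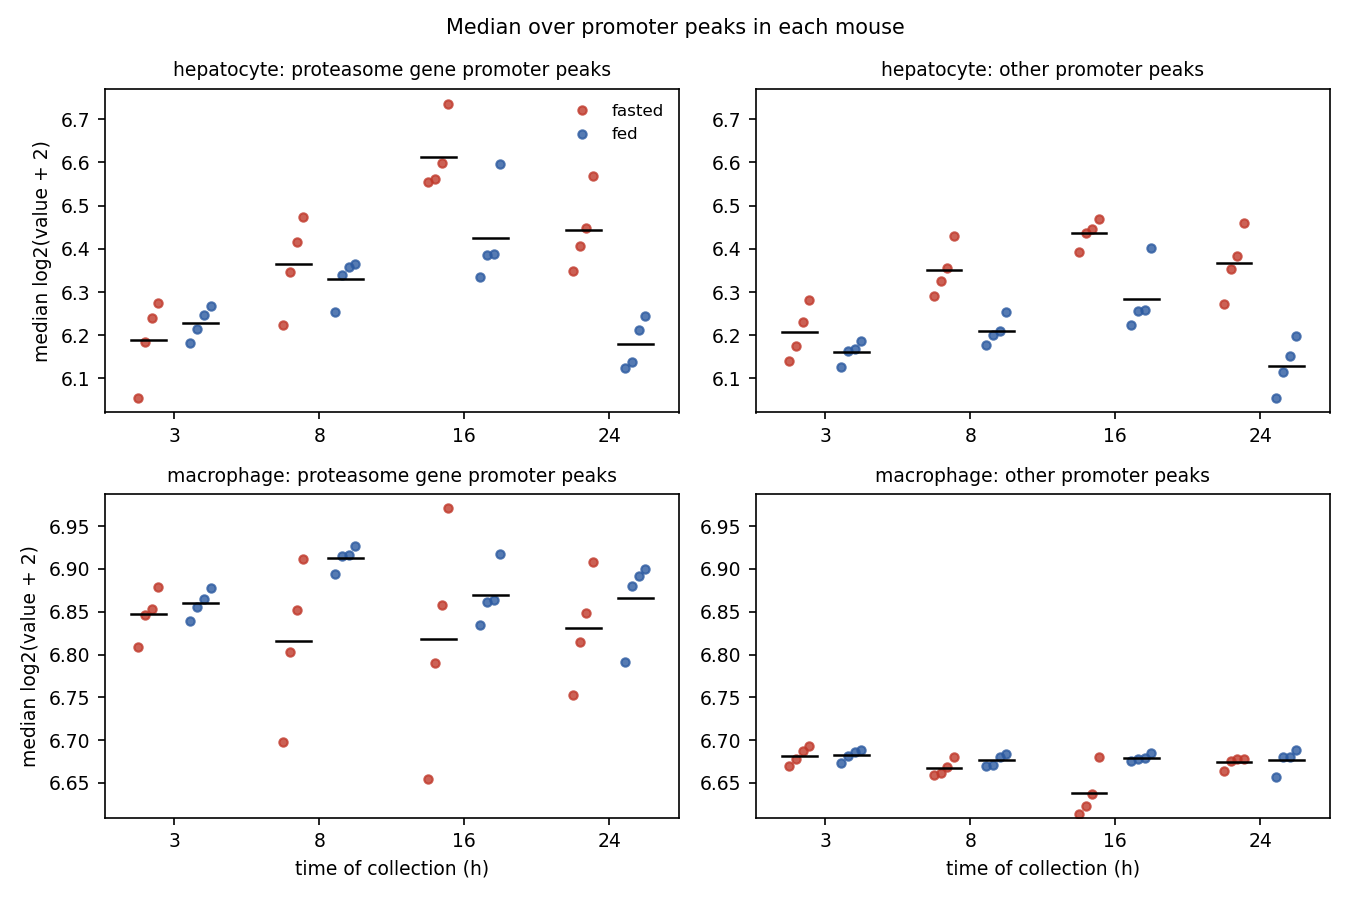
Median of log2(normalised reads + 2) over promoter peaks in each mouse (points, with group means as lines) against the time of collection in h, for proteasome gene promoter peaks (left) and the other promoter peaks (right), hepatocyte nuclei above and macrophage nuclei below; fasted mice are red and stand left of the fed mice in blue. At 24 h in hepatocytes the fasted mice lie above the fed mice in both panels (6.35 to 6.57 and 6.13 to 6.24 for proteasome genes).

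The number of hepatocyte calls depended on the scaling of the libraries. Promoter peaks took 46.8% to 49.4% of the signal in the 24 h fasted mice and 43.4% to 45.4% in the 24 h fed mice, and the summed level of the 12 hepatocyte marker genes was 6281 to 6991 in those fasted mice and 4632 to 4982 in those fed mice. The part of either in the result was not tested. With each library centred on its median peak, 4, 10, 11 and 21 members opened at 3, 8, 16 and 24 h, against 9.49%, 13.01%, 13.5% and 21.00% of the other peaks within 10000 bp. Those that closed were 2, 2, 1 and 1, against 8.28%, 12.05%, 8.99% and 7.38%. Under edgeR with TMM scaling 4, 10, 11 and 14 opened, against 11.5%, 14.5%, 11.6% and 13.5%, and 2, 2, 1 and 1 closed, against 7.69%, 11.5%, 9.72% and 8.999%. DESeq2 gave 4, 10, 10 and 10 opened, against 10.6%, 13.3%, 11.4% and 12.3%, and 1, 2, 1 and 1 closed, against 7.97%, 11.5%, 9.45% and 8.91%. Quantile normalisation gave 5, 10, 10 and 16 opened, against 12.1%, 13.9%, 10.04% and 12.4%, and 3, 2, 1 and 1 closed, against 10.7%, 12.5%, 7.77% and 7.18%. With each library centred on the other promoter peaks, a setting chosen after seeing the data, 3, 7, 9 and 1 opened, against 8.39%, 10.1%, 7.50% and 4.31%, and 3, 2, 1 and 2 closed, against 10.3%, 15.7%, 12.6% and 11.9%. In each of these settings the share of other peaks that opened at 24 h was also below the 32.7% found as deposited. In that setting the 24 h median of the 67 peaks was 0.11 in log2. The median of all peaks at 24 h was 0.16 as deposited, 0.09 after median centring, 0.03 under TMM and −0.08 when centred on the other promoter peaks.

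Under the promoter centring, Psmd3 (−231) was the 1 peak that opened at 24 h, by 0.60 (adjusted p = 0.00247). Those that closed were Psmg3 (4666), at −1.20 (adjusted p = 0.000176), and Psme1 (−43), at −0.54 (adjusted p = 0.0211). Psme1 (−43) was at −0.30 as deposited and not called. Of the 4, 16 and 18 openings called at 3, 8 and 16 h as deposited, 3, 7 and 9 were also called there. The 3 h opening of Psmd4 (2316) was not (0.61, adjusted p = 0.0684), nor were those of Psmd9 (−4941), Psma3 (−138), Psme3 (−277) and Psmg2 (5) at 24 h (0.28 to 0.39, adjusted p = 0.0881 to 0.279). Among those that were called were Psmd4 (2316) at 8 and 16 h by 2.19 and 0.72, Psmd9 (−4941) by 0.84, 1.27 and 0.81 at 3, 8 and 16 h, Psma5 (103) by 0.48, 0.36 and 0.27 at 3, 8 and 16 h, Psme1 (−483) at 16 h by 1.11, Psmc6 (−4196) by 0.45 and 0.61 at 8 and 16 h and Psmd1 (27) at 16 h by 0.64. Psmb3 (−167) and Psmg4 (−32) closed at 3 h in this setting, at −0.28 and −0.38. Psmg4 (−32) also closed at 8 h there, at −0.40 (limma adjusted p = 0.00758).

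Time was tested on its own in each cell type. The fasting effect differed between times for 12 of the 67 hepatocyte peaks (7 promoter peaks and 5 more distant ones), against 21.1% of the other peaks within 10000 bp. Fed mice differed between times at 10 of the 67, against 19.0%. In fed mice 6 of the 10 were highest at 16 h and 5 were lowest at 24 h. Fasted mice differed between times at 36 of the 67, against 50.6%. In fasted mice 29 of the 36 were highest at 16 h and 30 were lowest at 3 h. The other promoter peaks had the same order in both states. Their median log2(normalised reads + 2), averaged over the mice, was 6.21, 6.35, 6.44 and 6.37 in fasted mice at 3, 8, 16 and 24 h. For fed mice it was 6.16, 6.21, 6.28 and 6.13, so highest at 16 h and lowest at 24 h. In fasted mice the length of the fast and the time of day cannot be told apart. Under the promoter centring the 3 counts were 5, 6 and 12, against 15.04%, 13.5% and 32.6%.

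In macrophages, few proteasome gene peaks differed between fasted and fed mice. At 3 h, 1 of the 63 peaks opened and none closed, against 0.847% and 0.121% of the 19827 other peaks within 10000 bp. At 8 h, 1 opened and 1 closed, against 1.49% and 2.66%. At 16 h, 4 opened and 5 closed, against 4.57% and 11.8%. At 24 h, 2 opened and 2 closed, against 2.94% and 4.97%. The median log2 fold change of the 63 peaks was −0.02, −0.01, −0.0061 and 0.02 at the 4 times. No call was made at any time on 50 of the 63 peaks (79.4%), against 76.9% of the others, and 30 of the 42 genes had none. By role, the opened peaks of 16 h were 2 of 11 in the beta ring and 2 of 9 at assembly factors, and the closed ones were 2 of 14 in the alpha ring and 1 each of 7 at ATPases, 15 at non-ATPase subunits and 5 at activators. By limma, 0 of the 50 promoter peaks were called at 3 h and at 8 h, while 1 and 4 had an unadjusted p below 0.05; at 16 h 4 opened and 4 closed, against 5.12% and 8.14% of the 14088 other promoter peaks, and at 24 h 2 opened and 2 closed, against 2.96% and 3.11%. The all-peak median was −0.07, −0.10 and −0.06 at 8, 16 and 24 h as deposited. After median centring, 2, 10 and 8 peaks opened at 8, 16 and 24 h, against 4.17%, 15.7% and 8.56% of the other peaks within 10000 bp, and none closed, against 0.973%, 4.57% and 2.66%. Under edgeR with TMM 2, 9 and 7 opened, against 4.78%, 12.1% and 6.80%, and 1, 0 and 1 closed, against 1.997%, 5.07% and 4.22%. Under DESeq2 2, 7 and 3 opened, against 2.68%, 9.27% and 4.78%, and none closed, against 1.05%, 3.46% and 2.84%. Quantile normalisation gave 1, 4 and 4 opened, against 2.85%, 6.76% and 3.75%, and 0, 2 and 1 closed, against 1.09%, 5.05% and 3.04%. Under the promoter centring 1, 7 and 2 opened, against 1.56%, 6.79% and 2.95%, and 1, 2 and 2 closed, against 2.39%, 8.59% and 4.97%.

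Psmc1 encodes an ATPase of the regulatory particle, and a peak in its intron 5 gave the 2 early macrophage openings. This peak at 3825 (chr12:100116056-100116256) had 176, 191, 197 and 202 in fasted mice, against 114, 137, 158 and 172 in fed mice at 3 h. The lowest fasted mouse was above the highest fed mouse (0.41 ± 0.11 SE, adjusted p = 0.0239). At 8 h it averaged 195 ± 16.7 in fasted and 155 ± 19.9 in fed mice (SD, n = 4 each), with overlap (0.33 ± 0.11 SE, adjusted p = 0.0494). At 16 h 3 of the 4 fasted mice, at 105 to 114, were below all fed mice, at 128 to 147, and the other fasted mouse was at 168. At 24 h the fasted mice were above the fed mice without overlap, a difference of 0.24 ± 0.11 SE that missed the threshold (adjusted p = 0.142) and passed after median centring (0.34, adjusted p = 0.015). The effect differed between times (adjusted p = 0.032), and this was the 1 macrophage member of 63 for which it did, against 2.27% of the others. The smallest adjusted p of that test in the other roles was 0.146 (Psme1, activators), 0.159 (Psma7, alpha ring), 0.191 (Psmd11, non-ATPase), 0.201 (Psmd9, assembly), 0.271 (Psmb3, beta ring) and 0.752 (Psmf1). The macrophage Psmg3 peak at −3953 (chr5:139830747-139830947) was low, with 12.6, 19.0, 19.7 and 19.7 in fasted mice, against 26.5, 26.7, 26.9 and 34.2 in fed mice at 8 h, all fasted below all fed (−0.64 ± 0.20 SE, adjusted p = 0.0367).

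**Figure D4:**
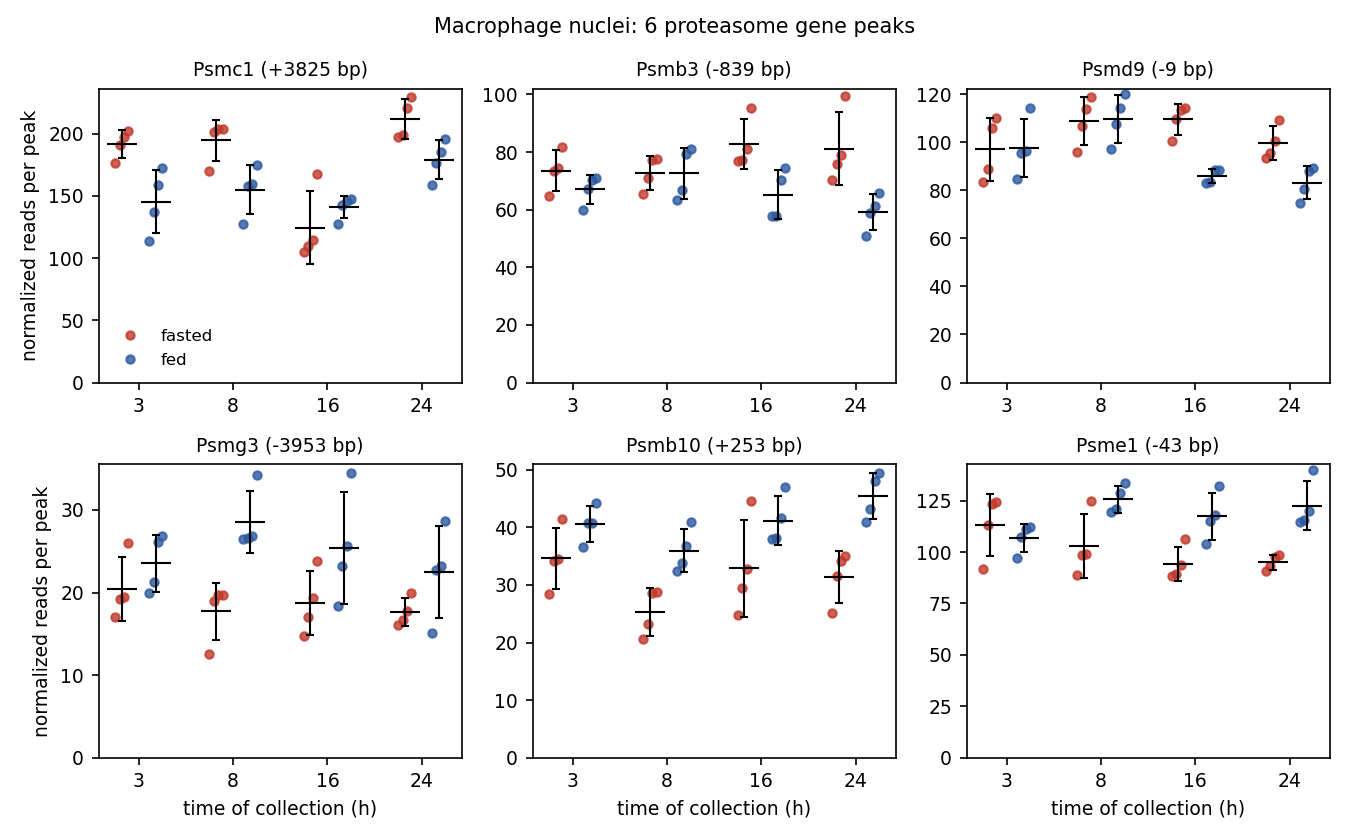
Normalised reads per peak in every macrophage mouse against the time of collection in h, for 6 proteasome gene peaks; fasted mice are red and stand left of the fed mice in blue, with the mean and SD of each 4 mice in black. Psmc1 separates at 3 h (mean 192 in fasted and 145 in fed mice), Psmb3 separates at 16 and 24 h, and Psme1 and Psmb10 are lower in fasted mice at 24 h.

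At 16 h the macrophage promoter peak of Psmd9 at −9 (chr5:123228081-123228281) had 101, 109.9, 113 and 114 in fasted mice, against 83.1, 83.5, 88.4 and 88.7 in fed mice. There was no overlap (0.34 ± 0.10 SE, adjusted p = 0.0124). Psmb3 at −839 had 76.9, 77.2, 81.2 and 95.4 in fasted mice, against 57.9, 57.9, 70.4 and 74.5 in fed mice at 16 h (0.34 ± 0.12 SE, adjusted p = 0.0371) and 70.4, 76.0, 79.0 and 99.4 in fasted mice, against 50.7, 59.0, 61.2 and 65.6 in fed mice at 24 h (0.44 ± 0.12 SE, adjusted p = 0.0113). Both times the fasted mice stood above the fed mice. Psmd5, another ATPase ring chaperone, had 137, 141, 145 and 177 in fasted mice, against 115, 121, 127 and 130.5 in fed mice at −45 and 16 h (0.27 ± 0.10 SE, adjusted p = 0.0370). The other opened peaks were Psmb6 (−54) at 16 h, by 0.31 (adjusted p = 0.00468), and, at 24 h, Psmb3 (−681), which shares 42 bp with the peak at −839, by 0.62 (adjusted p = 0.0448); both were named after their values were seen.

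Peaks that closed in macrophages at 16 h were Psmc3 (−1902), Psma6 (−56), Psma7 (12), Psmd11 (−62) and Psme1 (−43). Psmc3 had 17.0, 17.9, 19.6 and 22.3 in fasted mice, against 25.5, 28.9, 30.8 and 31.8 in fed mice (−0.56 ± 0.18 SE, adjusted p = 0.0228). Psma6 had 184, 189, 212 and 215 in fasted mice, against 221, 224, 226 and 235 in fed mice, all fasted below all fed by a small margin (−0.18 ± 0.06 SE, adjusted p = 0.0280). The groups of Psma7, Psmd11 and Psme1 overlapped, with log2 fold changes of −0.33, −0.31 and −0.31. After median centring the Psma6 difference was −0.04 (adjusted p = 0.757) and none of the 5 was called. At 24 h Psme1 (−43) had 90.9, 93.4, 97.4 and 98.4 in fasted mice, against 115, 115, 119.7 and 139.9 in fed mice, without overlap (−0.36 ± 0.10 SE, adjusted p = 0.0149). Psmb10, the immunoproteasome counterpart of Psmb7, had 25.1, 31.5, 34.1 and 35.0 in fasted mice, against 40.9, 43.2, 48.0 and 49.5 in fed mice at its peak at 253 and 24 h, also without overlap (−0.51 ± 0.16 SE, adjusted p = 0.0270). After median centring these 2 differences were −0.25 (adjusted p = 0.0854) and −0.41 (adjusted p = 0.0744).

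Without the fasted 16 h macrophage libraries of replicates 1 and 4, a step chosen after seeing the data that leaves 2 fasted mice, 0 of the 63 members were called at 16 h by limma, against 1.14% opened and 2.15% closed among the other peaks within 10000 bp, while 13 had an unadjusted p below 0.05. The 16 h differences were then 0.31 for Psmd9 (−9), 0.39 for Psmb3 (−839), 0.17 for Psmd5, −0.59 for Psmc3 and −0.18 for Psma6, with adjusted p of 0.103 to 0.403. Macrophage marker peaks summed to 1982 to 2460 normalised reads in the fasted and to 2491 to 2743 in the fed mice of 16 h. The 1 peak of the monocyte and neutrophil list, at S100a8, was at 37.1 to 68.1 in fasted and 22.7 to 35.6 in fed mice at 16 h and at 32.1 to 58.9 in fasted and 19.6 to 31.6 in fed mice at 24 h, while Ly6c2, Ccr2, S100a9 and Ly6g had no peak. At 16 h promoter peaks took 66.5% to 69.6% of the signal in fasted and 64.4% to 66.4% in fed mice. The part of these in the result was not tested. In fed macrophage mice 0 of 63 members differed between times by limma, against 1.33% of the others; 4 had an unadjusted p below 0.05, and edgeR and DESeq2 gave 0. Fasted macrophage mice differed between times at 3 of 63 peaks, against 15.2%.

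Both tables shared 51 member peaks at 41 genes, with identical coordinates. In hepatocytes 1, 8, 12 and 28 of these opened at 3, 8, 16 and 24 h (1.96%, 15.7%, 23.5% and 54.9%), against 6.06%, 17.8%, 21.2% and 46.3% of the 12650 other peaks within 10000 bp that both tables hold. Those that closed were 1, 0, 0 and 0, against 3.34%, 2.24%, 1.30% and 1.13%. In macrophages 0, 0, 4 and 1 opened, against 0.561%, 1.83%, 6.32% and 3.65%, and 0, 0, 4 and 1 closed, against 0.103%, 0.538%, 6.36% and 2.36%. Among the other peaks too, more openings were called in hepatocytes than in macrophages at 24 h. At 16 h, peaks of Psmb3 (−839) and Psmb6 (−54) opened in both cell types (3.92%, against 3.52% of the others). No shared member opened in hepatocytes and closed in macrophages at any of the 4 times, and at most 0.206% of the others did at any 1 time. Of the 51 log2 fold changes, 22, 41, 50 and 48 were positive in hepatocytes, against 47.9%, 76.0%, 83.5% and 91.3% of the others. In macrophages 23, 21, 25 and 28 were, against 49.1%, 54.6%, 50.2% and 57.7%. The difference between the cell types was not tested, because the tables were normalised separately.

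**Figure D5:**
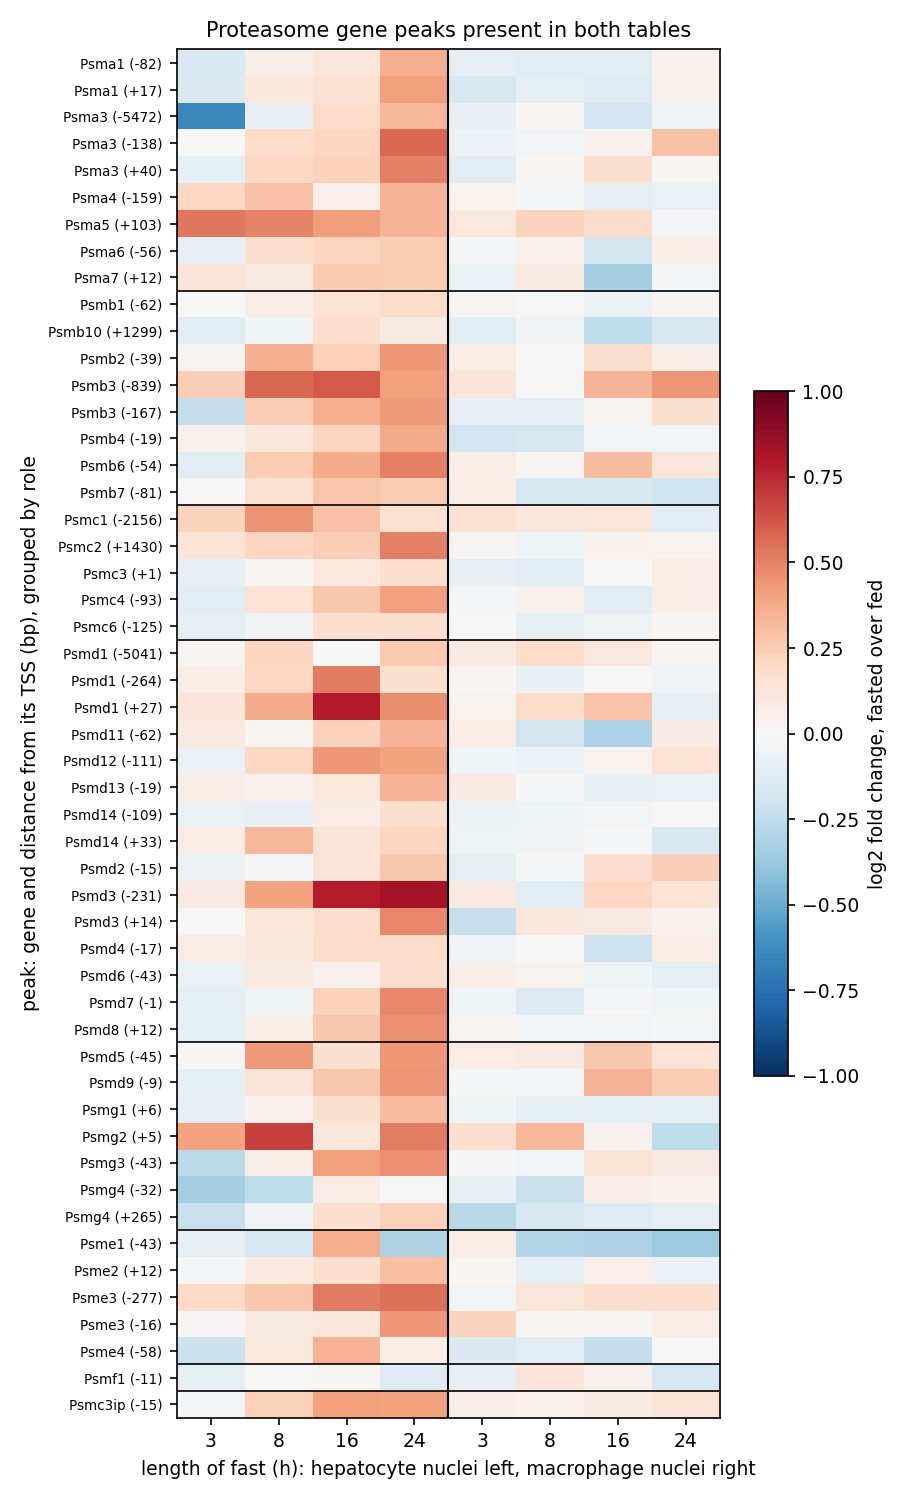
Log2 fold change (fasted over fed, colour scale cut at −1 and 1) of the 51 proteasome gene peaks present in both tables, 1 per line and grouped by role, at 3, 8, 16 and 24 h of fasting in hepatocyte nuclei (left 4 columns) and macrophage nuclei (right 4). In hepatocytes 48 of the 51 are positive at 24 h, and in macrophages 28 are. Of the 12650 other peaks in both tables, 91.3% and 57.7% are.

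Other ubiquitin and proteasome pathway genes, a list of 37 that the name rule does not cover (proteasome-associated proteins, ubiquitin genes, ubiquitin-activating, conjugating and ligase enzymes, shuttle receptors and the factors NFE2L1 and NFE2L2), had peaks at 32 genes in each table. Of their 91 hepatocyte peaks, 8, 29, 23 and 37 opened at 3, 8, 16 and 24 h (8.79%, 31.9%, 25.3% and 40.7%), against 9.95%, 19.5%, 19.8% and 32.7% of all non-proteasome peaks within 10000 bp, among which they are counted. Those that closed were 9, 6, 9 and 2, against 7.58%, 9.18%, 7.46% and 6.30%. They had median log2 fold changes of −0.03, 0.20, 0.16 and 0.28. Among the largest differences were distal peaks of 2 genes. Nfe2l2 encodes an antioxidant response factor, and its peak at 8802 averaged 10.6 ± 2.82 in fasted and 33.5 ± 3.69 in fed mice (SD, n = 4 each) at 8 h (−1.52 ± 0.22 SE, adjusted p = 1.71e-06). The ubiquitin gene Ubb averaged 69.3 ± 12.6 in fasted and 23.3 ± 1.17 in fed mice (SD, n = 4 each) at its peak at 7451 and 3 h (1.48 ± 0.18 SE, adjusted p = 3.83e-07). In macrophages, of 70 peaks 0, 0, 11 and 2 opened, against 0.847%, 1.49%, 4.57% and 2.94%, and 0, 1, 1 and 1 closed, against 0.121%, 2.66%, 11.8% and 4.97%. Among the largest there were Ube2d1 (−35), a conjugating enzyme gene, with 59.7 ± 5.82 in fasted and 81.8 ± 15.6 in fed mice (SD, n = 4 each) at 16 h (−0.43 ± 0.14 SE), and Ubb (−1324) with 48.6 ± 6.38 in fasted and 35.7 ± 4.36 in fed mice (SD, n = 4 each) at 16 h (0.42 ± 0.15 SE).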

How the data were processed

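ATAC-seq libraries came from bead-bound nuclei and were sequenced paired-end, per the labels' protocols. The submitters' processing notes name BWA 0.7.5a-r405, SAMtools, HOMER, DESeq2 and mm10, with roles and settings not given in the sources used here. The deposited signal per peak is reads divided by 1 factor per library by the authors: every value times its factor came out as a whole read in all columns (largest deviation 0, tolerance 0.01). How technical duplicates of the macrophage libraries were joined is not stated. The authors' own fold changes and p-values were not used.

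Groups follow the labels, with 4 mice each. Replicate numbers are in accession order. All peaks with a mean of at least 10 were fitted per cell type with limma 3.58.1 (R 4.3.3) on log2(value + 2), with 8 group means and a variance trend, and p-values were Benjamini-Hochberg adjusted over all tested peaks (below 0.05 is called). Log2 fold changes on that scale understate changes of low peaks. A moderated F test was run on the change of the fasting effect over the 4 times, and 1 each on time in fed and in fasted mice. As alternatives, the recovered reads were tested with DESeq2 1.42.0 and with edgeR 4.0.16 (TMM scaling), and further ones were other pseudocounts, filters and scalings, the library number set as a covariate, promoter peaks alone, each mouse left out, and 2 settings added after seeing the data. The scripts were tested on simulated data. No pair of libraries shared more than 3.70% of peaks with equal reads, so no column was a copy of another. A library sequenced again would not be found in this way.

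Named peaks are, per cell type and time, the 5 opened and 5 closed peaks of largest change whose mice do not overlap, 1 per gene, and per role the peak with the smallest p for an effect that differs between times; of the 3 largest called differences per cell type in the pathway list, 1 in each is not reported here. Members and lists were chosen with earlier results of these data known. RefSeq promoter sequences are of GRCm38.p6, and Python 3.11.15 with pandas 2.3.3 read them. Precision is limited by 4 mice a group and by counting error at low peaks.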

Additional observations from a re-analysis of the deposited data

Results flagged for a closer look

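At 12 hepatocyte peaks and 1 macrophage peak, the fasting effect itself differed between the 4 times by the moderated F test (limma, adjusted over all tested peaks). The adjusted p was 0.000547 for Psmd4 (2316), which opened by 2.33 in log2 at 8 h. At 24 h that peak stood at 0.46 and was not called. The adjusted p was 0.00367 for Psmb3 (−167), which stood at −0.24 at 3 h and 0.42 at 24 h. It was 0.0131 for Psmc6 (−4196), 0.0135 for Psme1 (−483) and 0.0142 for Psma3 (−5472). For Psmg3 (4666), the peak that closed from 8 h on, it was 0.0169. It was 0.0209 for Psmd3 (−231), which stood at 0.09 at 3 h and 0.83 at 24 h. The other promoter peaks were Psmc4 (−93) at 0.023, Psma3 (40) at 0.0249, Psmd7 (−1) at 0.0288 and Psmd12 (−111) at 0.0453, and a further distal peak was Psmb6 (−1881) at 0.0455. Each of these 5 stood below 0 at 3 h and opened at 24 h. Such a difference was called at 21.1% of the other hepatocyte peaks within 10000 bp. In macrophages it was 0.032 for Psmc1 (3825), which stood at 0.41 at 3 h and −0.20 at 16 h.

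A screen for single mice apart from the other 3 of their group flagged 3 places. The fasted 16 h macrophage mouse described above for Psmc1 (3825) is not among them. For Psmg3 (−3953) in macrophages, replicate 3 of the fasted 8 h mice was at 12.6 normalised reads, with the other 3 at 19.0 to 19.7, and replicate 4 of the fed 8 h mice was at 34.2, with the other 3 at 26.5 to 26.9. Both widen the gap between fasted and fed mice there, and without either mouse the call was lost. For Psmd9 (−4941) in hepatocytes, replicate 1 of the fed 16 h mice was at 31.5, with the other 3 at 34.9 to 35.4. Chance marks about 1 in 20 groups in this way.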

How the results depend on the processing

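Of the 31 named differences, 14 kept their call and direction in every alternative that could be run, all of them among the 21 in hepatocytes, none of the 10 in macrophages did, and none reversed. The counts moved most with scaling. In hepatocytes, called peaks (opened plus closed) at 16 and 24 h, 19 and 36 as deposited, were 12 and 22 after median centring, 11 and 17 after quantile normalisation, 12 and 15 under edgeR with TMM, 11 and 11 under DESeq2 and 10 and 3 when centred on the other promoter peaks, where 8 h gave 9 in place of 17. At 3 h, 5 became 8 after quantile normalisation, 3 with a mean of at least 50 and 1 within 1000 bp, where 8 h gave 9. The time tests in hepatocytes (12 for the fasting effect, 10 in fed and 36 in fasted mice) gave 20 in fasted mice under quantile normalisation, 7, 6 and 20 under edgeR, 6 in fed and 20 in fasted mice under DESeq2, 5, 6 and 12 under promoter centring, and 7 for the fasting effect within 1000 bp.

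In macrophages, 24 h gave 8 called peaks in place of 4 after median centring and under edgeR, and 2 with a mean of at least 50. At 8 h, 2 became 0 with a mean of at least 50 and within 1000 bp, 1 after quantile normalisation and with a pseudocount of 1, and 4 with the library number set as a covariate. At 3 h, 1 became 0 without the variance trend and within 1000 bp. At 16 h, 9 became 0 without the 2 fasted libraries named above. The 1 peak whose fasting effect differed between times became 0 after median centring, under edgeR, under DESeq2, under promoter centring, without the variance trend, within 1000 bp and without those 2 libraries. Fed mice gave 1 in place of 0 after quantile normalisation and with the library number set, and fasted mice gave 5 in place of 3 after median centring and under edgeR. The cause was not tested, beyond the smaller number of peaks that the distance and level limits leave.

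With 1 mouse left out, hepatocyte calls ranged from 4 to 5, 12 to 16, 13 to 20 and 25 to 37 at 3, 8, 16 and 24 h, from 8 to 16 for the fasting effect between times, from 4 to 14 in fed mice (4 without fed 24 h replicate 2) and from 30 to 40 in fasted mice. Macrophage calls ranged from 0 to 1, 0 to 3, 5 to 10 and 1 to 6, with 5 at 16 h without fasted replicate 1, 1 at 24 h without fed replicate 2 and 2 there without fasted replicate 3 or 4 or fed replicate 1, and the time tests from 0 to 1, 0 to 1 and 2 to 3. The 3 h call was lost without fasted replicate 2, 3 or 4 or fed replicate 1 or 3, and the 8 h count was 0 or 1 without any 1 of the mice but fasted replicate 1. Leaving out 1 mouse ended 9 of the 10 named macrophage calls, all but Psmd9 (−9) at 16 h. Leaving out 1 mouse ended the hepatocyte calls of Psmd4 at 3 h (6 mice, 1 at a time), Psmg2 (4) and Psme3 (2) at 24 h, Psmb3 (−839) at 8 h (fasted replicate 4) and Psmd4 at 16 h (fasted replicate 3). No paired analysis was possible because the replicate numbers were given in accession order and the labels tie no fasted mouse to a fed one.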
